A study of Homo sapiens with 4 samples.

Results

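The steady H3K27Ac regions of gene deserts were pairs of peaks, 1 from LNCaP cells given vehicle and 1 from LNCaP cells given dihydrotestosterone (DHT), that overlapped each other and no other peak of the opposite list. They were selected on their measured values. The vehicle peak was at least 26 tags high and under 8000 bp wide, the DHT height divided by the vehicle height lay between 0.8 and the inverse of 0.8, and the vehicle peak lay at least 100 kb from every protein-coding transcript start of hg19. There were 1888 such pairs among the 22691 one-to-one pairs of that height and width, and among 47574 one-to-one pairs in all.

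LNCaP, a human line from a prostate cancer metastasis, responds to androgen. For H3K27Ac the cells (passage 20) were kept in charcoal-stripped serum, which is depleted of steroid hormones, and were collected either after ethanol vehicle or after 10 nM DHT for 4 h. TCF7L2 was immunoprecipitated from LNCaP at passage 15 in serum that had not been stripped, so that no TCF7L2 library matched either H3K27Ac condition. Each condition had 1 library, of 1 cell line, hence no test between conditions was possible and every direction given here is a comparison of 2 libraries.

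H3K27Ac, acetylation of lysine 27 of histone H3, marks the nucleosomes beside active promoters and enhancers. Gene deserts are long stretches without protein-coding starts, and many hold enhancers that act on genes far away, often on developmental regulators. In prostate cells forkhead proteins such as FOXA1 open chromatin at enhancers, while TCF7L2 is a DNA-binding partner of beta-catenin in Wnt signalling.

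The 2 lists held 57623 vehicle and 60752 DHT peaks, the TCF7L2 list held 20955, and the number of reads behind each is unknown. Promoters of luminal prostate markers carried H3K27Ac peaks for 11 of 12 genes with vehicle and 12 of 12 with DHT, KLK3 having none with vehicle. Promoters of basal epithelium (0 of 3) and leukocytes (0 of 4) had none in either list, those of stroma and endothelium 1 of 4 and 1 of 3.

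DNA of the regions is shown for 3 features that the results turn on, as GRCh37 sequence, 300 bases each, named by the nearest protein-coding start. The 4 stretches that follow are centred on 4 of the 6 tallest TCF7L2 peaks within steady desert pairs. Capitals mark the TCF7L2 motif CTTTGAT or CTTTGAA and the AP-1 motif TGANTCA, read on both strands. The stretch near MSX2 held 1 of each, those near NYAP2 and KITLG held AP-1 motifs alone, and that near REEP3 held neither.
REEP3, chr10:65471955-65472254, plus strand: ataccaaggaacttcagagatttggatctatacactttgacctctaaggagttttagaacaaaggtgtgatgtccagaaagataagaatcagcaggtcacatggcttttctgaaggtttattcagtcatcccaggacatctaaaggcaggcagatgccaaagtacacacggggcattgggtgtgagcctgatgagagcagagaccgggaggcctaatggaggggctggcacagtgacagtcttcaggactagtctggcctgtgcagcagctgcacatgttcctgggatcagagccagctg
KITLG, chr12:89319690-89319989, plus strand: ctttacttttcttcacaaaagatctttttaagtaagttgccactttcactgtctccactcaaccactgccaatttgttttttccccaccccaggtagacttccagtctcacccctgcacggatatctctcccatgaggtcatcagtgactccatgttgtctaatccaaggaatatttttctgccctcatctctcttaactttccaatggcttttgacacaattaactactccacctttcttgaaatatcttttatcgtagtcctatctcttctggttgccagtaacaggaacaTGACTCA
NYAP2, chr2:226979940-226980239, plus strand: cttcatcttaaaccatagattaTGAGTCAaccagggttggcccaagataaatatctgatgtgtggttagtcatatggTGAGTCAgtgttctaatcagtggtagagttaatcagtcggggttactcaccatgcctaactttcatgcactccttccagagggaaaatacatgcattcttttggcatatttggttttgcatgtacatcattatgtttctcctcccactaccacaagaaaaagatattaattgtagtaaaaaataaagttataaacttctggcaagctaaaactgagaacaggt
MSX2, chr5:173930730-173931029, plus strand: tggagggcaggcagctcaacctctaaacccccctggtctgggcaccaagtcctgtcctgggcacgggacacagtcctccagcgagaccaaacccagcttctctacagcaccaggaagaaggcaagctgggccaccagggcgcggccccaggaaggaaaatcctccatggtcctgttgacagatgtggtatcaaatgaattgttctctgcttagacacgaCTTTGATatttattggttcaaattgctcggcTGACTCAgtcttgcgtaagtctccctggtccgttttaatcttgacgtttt

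Next are the regions with the most forkhead motifs in the central 500 bp, shown because that motif became denser towards the centres. Capitals mark TGTTTAC or TGTTTGC on either strand. Near GALNT2 the motif recurred at the same spacing in the first 3 copies, and another lay close to the other end.
GALNT2, chr1:230321910-230322209, plus strand: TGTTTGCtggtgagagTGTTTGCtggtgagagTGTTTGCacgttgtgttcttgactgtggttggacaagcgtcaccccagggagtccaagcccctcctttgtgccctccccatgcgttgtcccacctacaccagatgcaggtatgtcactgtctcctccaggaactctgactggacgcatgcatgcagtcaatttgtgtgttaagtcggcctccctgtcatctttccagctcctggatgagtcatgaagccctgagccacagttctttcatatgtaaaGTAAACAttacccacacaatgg
IRX3, chr16:54459000-54459299, plus strand: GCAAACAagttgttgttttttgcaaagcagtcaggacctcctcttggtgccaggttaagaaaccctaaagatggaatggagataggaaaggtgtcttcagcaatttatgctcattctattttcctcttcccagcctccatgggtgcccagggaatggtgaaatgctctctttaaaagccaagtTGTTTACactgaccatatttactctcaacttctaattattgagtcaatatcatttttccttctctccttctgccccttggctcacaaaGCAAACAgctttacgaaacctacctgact

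The last 2 are the tallest CpG-rich regions that lay over the start of a non-coding gene and were placed once in the genome, a small nuclear RNA gene in each case (RNVU1-18 near H3-7 and the pseudogene RNU1-120P near BX842679.1). Capitals mark CpG dinucleotides, of which the first stretch held 15 and the second 9.
H3-7, chr1:149223465-149223764, plus strand: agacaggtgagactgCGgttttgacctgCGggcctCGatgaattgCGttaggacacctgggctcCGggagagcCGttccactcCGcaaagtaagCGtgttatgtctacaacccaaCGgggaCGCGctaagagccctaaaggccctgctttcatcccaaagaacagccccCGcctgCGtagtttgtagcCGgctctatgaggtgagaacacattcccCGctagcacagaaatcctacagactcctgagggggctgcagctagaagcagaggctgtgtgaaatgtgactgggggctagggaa
BX842679.1, chr1:147736065-147736364, plus strand: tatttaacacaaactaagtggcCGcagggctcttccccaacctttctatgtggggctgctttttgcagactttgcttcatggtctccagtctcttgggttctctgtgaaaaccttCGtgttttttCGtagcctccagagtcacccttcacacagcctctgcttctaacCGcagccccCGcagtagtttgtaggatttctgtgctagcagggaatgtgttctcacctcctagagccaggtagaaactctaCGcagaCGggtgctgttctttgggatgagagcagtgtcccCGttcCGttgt

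Heights of the steady desert pairs were modest and close to those of all pairs. The median was 46 tags with vehicle (quartiles 33 and 71, range 26 to 184) and 46 tags with DHT (33 and 70, range 21.0 to 168), where all 22691 pairs had medians of 45 and 48 tags. Their median width was 2609 bp with vehicle and 2519 bp with DHT. Both edges moved by no more than 300 bp in 1679 pairs (88.9%), and the median pair shared 93.6% of the span that both peaks covered together. Across the 1888 regions the logarithm of height went with the logarithm of width (Pearson r = 0.757, Spearman rank correlation 0.776), a description over regions of 1 library.

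Within the band that selected them, 1055 pairs were higher with vehicle, 711 with DHT, and 122 had equal heights. The median ratio was 0.968. How firmly a ratio was fixed depended on height. Were tags independent, the exact 95% interval of the ratio would lie inside the band for only 1 of the 1888 pairs, of 168 tags in both lists, so that steady describes the measured values and does not show that a region was unchanged. That interval lay wholly outside the band for 155 of the 643 desert pairs above it (24.1%) and 96 of the 1485 below it (6.46%). It left out 1 for 348 of the pairs above the band (54.1%) and for 515 of those below it (34.7%). These intervals cover counting error alone.

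**Figure D1:**
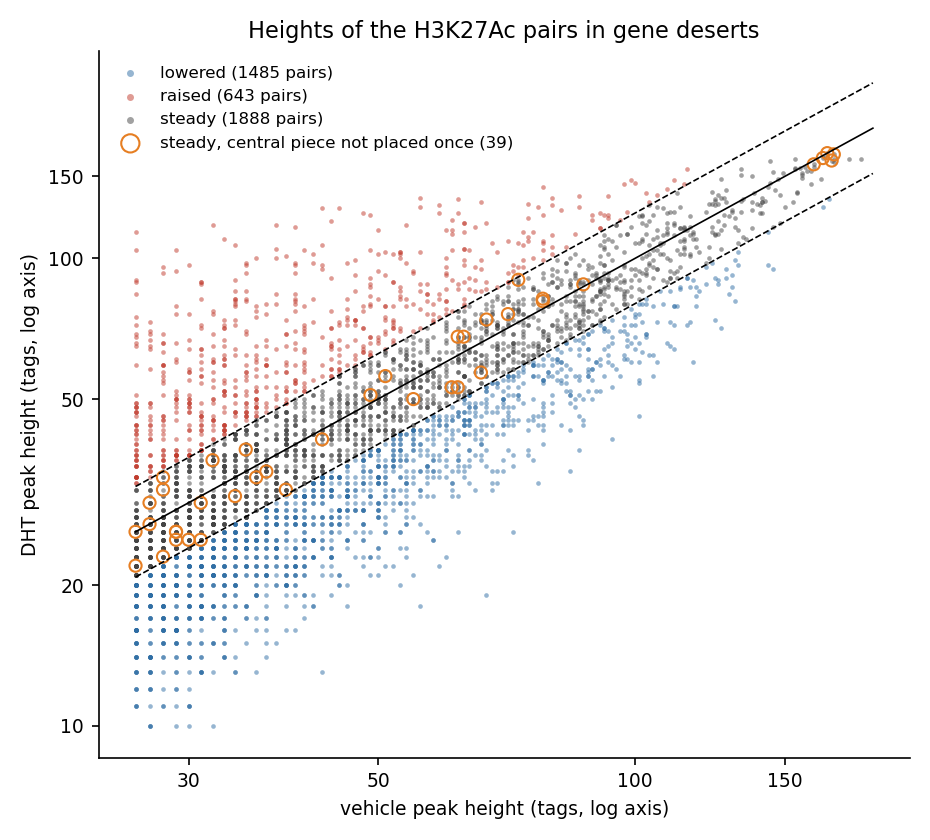
Height of each desert pair with vehicle (x axis, tags) and DHT (y axis, tags), both log axes, coloured by whether the pair was steady, raised or lowered, with lines at a ratio of 1 and at both bounds of the band. Orange rings mark the 39 steady pairs whose central 1000 bp could not be placed once in the genome, 5 of which sit among the tallest.

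The bounds cut through continuous distributions. On the lower bound of the ratio stood a region 658 kb from PLPP3 (30 and 24 tags with vehicle and DHT) and one 922 kb from BRINP3 (35 and 28 tags), and just outside lay one 385 kb from FGF10 (74 and 59 tags) and one 254 kb from ZPLD1 (143 and 114 tags). At the upper bound, pairs near DMRTA2 (36 and 45 tags) and CCDC54 (40 and 50 tags) were inside while pairs near DHFR2 and CALN1 (71 and 89 tags in both) were outside. At the height bound, regions near HP1BP3 (26 and 22 tags) and DEPDC1 (26 and 25 tags) were taken and those near PTBP2 (25 and 23 tags) and PRMT6 (25 and 27 tags) were not. Widths of 7979 bp near ZNF217 and 7949 bp near EPHA3 were inside, and 8009 bp near SYT4 and 8039 bp near GULP1 outside. By distance, regions near GRIK2 (27 and 22 tags) and CPQ (30 and 29 tags) were the closest taken, while those near MARK1 (29 and 34 tags) and LIMS4 (35 and 28 tags) fell just short.

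Desert regions were less often steady than regions near genes, and those outside the band were mostly lower with DHT. Of all 22691 pairs 62.1% were steady, 17.7% higher and 20.2% lower with DHT. Of the 4016 desert pairs 1888 were steady (47.0%, 95% Wilson interval 45.5 to 48.6), 643 were higher (16%) and 1485 lower (37%). Pairs without a promoter and under 100 kb from a start were steady in 57.4% of 12251 and lower in 23.9%, and promoter pairs were steady in 80.4% of 6424 and lower in 2.71%. The height bound was set on the vehicle peak alone in every class. Pairs under 26 tags with vehicle but taller with DHT were therefore not counted, whereas lowered desert pairs went down to 10 tags with DHT. How much this changed the shares of raised and lowered pairs was not tested. The median ratio was 0.891 in deserts, 0.968 near genes and 1.12 at promoters. Because the band was centred on 1 while the desert median was 0.891, the median of the steady pairs, 0.968, lay above it. Dividing by that median instead would make 2069 desert pairs steady, and 1574 of the 1888 (83.4%) would be among them.

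The share that was steady fell with distance from genes. It was 50.6% at 100 to 200 kb (827 of 1633), 45.1% at 200 to 500 kb, 44.5% at 500 to 1000 kb and 41.8% beyond 1000 kb (122 of 292), while the share lower with DHT went from 31.7% to 39.2%, 41.3% and 45.9%. Tall regions were steady more often: 42.8% of desert pairs of 26 to 39 tags and 70.1% of the 268 with at least 100 tags, beside 53.7% and 81.3% of all pairs in those ranges. Counting error moves a ratio out of a fixed band more readily at low heights, and its part in this rise was not tested.

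Base composition moved with the ratio. The median GC content of the central 500 bp was 37.6% in steady desert pairs, 37.2% in raised and 35% in lowered ones, 41.8% in steady distal pairs near genes and 58.4% at steady promoters. Desert pairs under 35% GC had a median ratio of 0.821 and were steady in 39.2% of 1575, and those of 50% GC or more had a median ratio of 1.03 and were steady in 73.8% of 214. The same rise was seen near genes without promoters (0.897 to 1.03) and at promoters (1.03 to 1.13). In each of the 5 classes of GC the steady share was lower in deserts than near genes without promoters. For 35 to 40% GC it was 46.1% against 50.8%. The gap was narrow for 45 to 50% GC (63.6% of 302 against 66.4% of 1772) and for 50% GC or more (73.8% of 214 against 76.3% of 1816). No intervals were worked out for these classes, so the narrow gaps cannot be told apart from counting error. The part of GC content in the height ratio was not tested, and with 1 library of each kind a difference between libraries and one between conditions cannot be told apart.

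**Figure D2:**
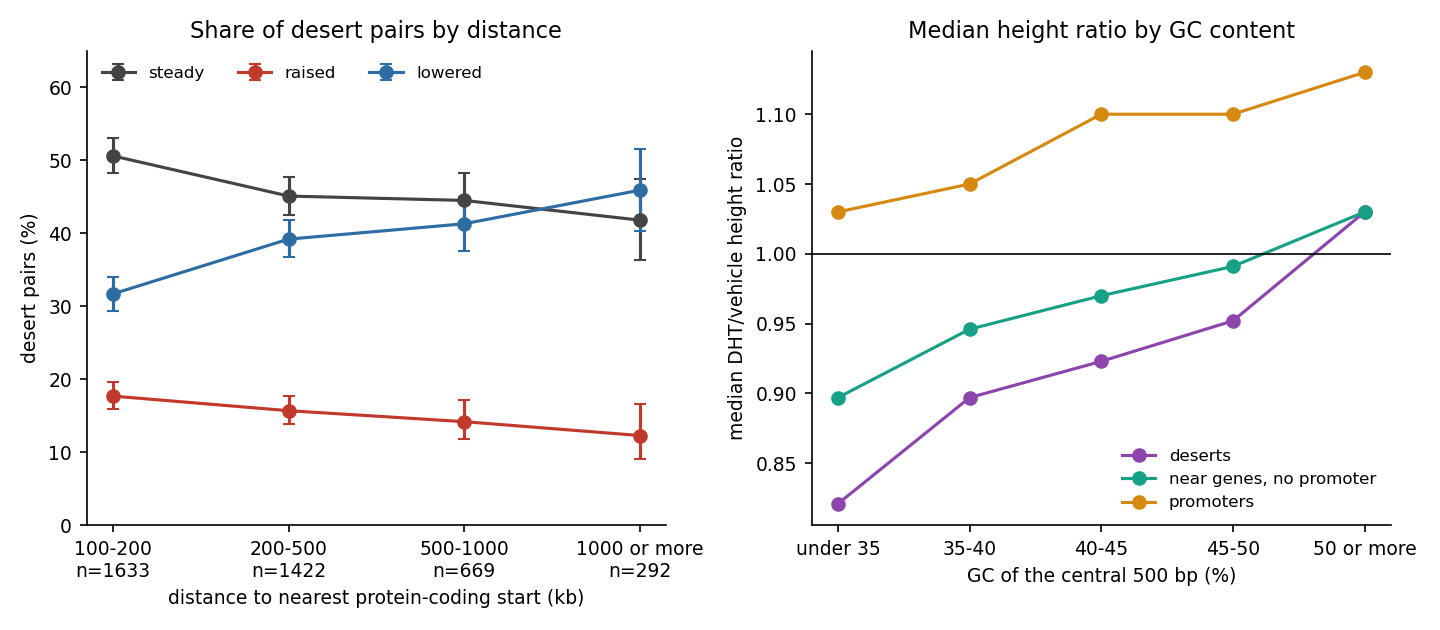
Left, percent of desert pairs that were steady, raised or lowered by distance to the nearest protein-coding start (kb), with 95% Wilson intervals and n under each class, steady falling from 50.6% to 41.8%. Right, median DHT/vehicle height ratio by GC of the central 500 bp (%) in deserts, near genes and at promoters, rising with GC in each.

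Fewer steady desert regions than steady regions near genes carried TCF7L2. A TCF7L2 peak overlapped 129 of the 1888 (6.83%, 5.78 to 8.06), where 15.7% of all pairs did, 12.5% of steady distal pairs near genes and 34.5% of steady promoter pairs. Raised (3.89%) and lowered (3.70%) desert pairs had lower shares, and neither interval (2.65 to 5.68 and 2.86 to 4.79) overlapped that of the steady ones. By class of vehicle height the gap was not even. With 26 to 39 tags 5.33% of steady, 3.61% of raised and 3.10% of lowered pairs overlapped TCF7L2, with 40 to 59 tags 5.65%, 5.62% and 2.39%, and with 60 to 99 tags 7.86%, 2.06% and 7.17%. With at least 100 tags 13.3% of steady pairs (9.17 to 18.9), 2.78% of 72 lowered pairs (0.765 to 9.57) and 0 of 8 raised pairs did. The intervals of steady and raised, and of steady and lowered, pairs overlapped in each of these classes, though barely for lowered pairs in the tallest. The share grew with height, from 5.33% of steady desert pairs with 26 to 39 tags to 13.3% of those with at least 100, and in the same height classes near genes it went from 9.32% to 18.9%. It also grew with GC content: 1.97% of desert pairs under 35% GC and 14.0% of those with 50% GC or more overlapped TCF7L2. Near genes without promoters these shares were 3.84% and 19.7%. The desert share was the lower one in every class of GC. For 45 to 50% GC the shares were nearly equal (14.2% in deserts, 14.3% near genes). These classes pool steady, raised and lowered pairs and have no intervals. How much of the gap between steady pairs went with GC content was not tested. Depth of the TCF7L2 library is unknown, so a region without a listed peak is one where none passed the authors' threshold.

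TCF7L2 peaks in deserts were few and taller than at promoters. The 157 within steady desert pairs had a median height of 44 tags (quartiles 27 and 78), compared with 42 tags in raised and 46 in lowered desert pairs, 33 in steady distal pairs near genes, 26 at steady promoters and 31 for the whole list. Of these, 63.1% had their centre within 500 bp of the H3K27Ac centre. In 200 bp at TCF7L2 centres the AP-1 motif was found in 42.7% (35.2 to 50.5) and the TCF7L2 motif in 22.9% (17.0 to 30.1), beside 4.46% and 5.10% for the same letters reversed. At steady promoters AP-1 stood in 10.1% and TCF7L2 in 12.4%, whereas the ETS motif CCGGAAG, in 16.9% there, was in 0.637% of the desert windows. The ETS letters reversed were in 3.73% at promoters and 0.637% in deserts. They lack the CpG that the motif holds, so they do not match its CpG content. Steady distal pairs near genes had values like those of the deserts, 39.3% for AP-1 and 17.9% for TCF7L2.

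The tallest TCF7L2 peaks were in regions of all heights. None of the 10 tallest H3K27Ac regions overlapped a TCF7L2 peak, where 13.3% of steady desert regions with at least 100 tags did. With only 10 regions these cannot be told apart. The peak of 223 tags was in a region 189 kb from REEP3, an endoplasmic reticulum protein gene, whose H3K27Ac heights were 82 and 80 tags. One of 213 tags lay 344 kb from KITLG, which encodes the ligand of the receptor KIT, in a region of 36 and 37 tags. NYAP2 was 532 kb from a TCF7L2 peak of 211 tags in a region of 34 and 29 tags. Regions near MSX2, a homeobox gene (118 and 110 tags), and IRF2BP2, a transcriptional corepressor gene (141 and 132 tags), held TCF7L2 peaks of 201 and 175 tags and were among the taller ones of this group. Near DUSP6, a phosphatase of ERK kinases, 48 and 41 tags of H3K27Ac stood beside 163 of TCF7L2, and near BCOR, a corepressor, 33 and 36 beside 162.

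The forkhead motif stood out at the centres of the steady desert regions. TGTTTAC or TGTTTGC was in the central 500 bp of 699 (37%, 34.9 to 39.2), and its letters reversed were in 16.8%. Reversal keeps the base composition, but TGTTTGC gains a CpG by it, so the reversed share is not a like control. Among all pairs the motif was in 28.7% (reversed 13.9%), in steady distal pairs near genes in 32.4% (reversed 14.4%) and at steady promoters in 13.2% (reversed 8.07%). The reversed letters were thus also more frequent in deserts than in these sets. Raised (40.6%, reversed 21.9%) and lowered (37.8%, reversed 19.5%) desert pairs had motif shares whose intervals overlapped that of the steady pairs. From 0.99 and 1.02 sites per kb in the 200 bp on either side of the centre, the density fell to 0.49 and 0.46 from 400 bp outwards and to 0.39 and 0.37 from 1200 bp outwards. Promoters had no such rise, with 0.32 and 0.28 sites per kb at the centre.

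**Figure D3:**
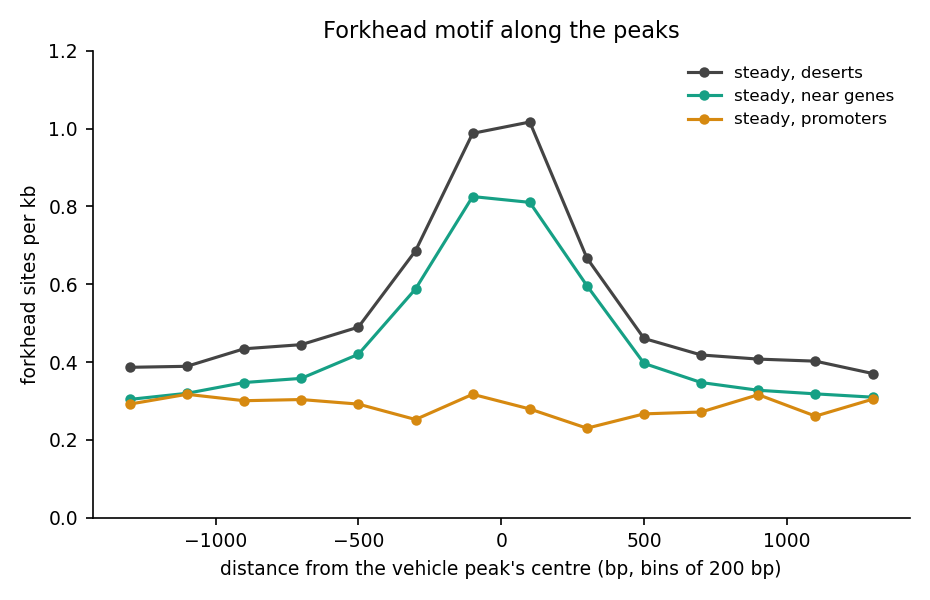
Forkhead sites per kb (y axis) by distance from the vehicle peak's centre (x axis, bp, bins of 200 bp) in steady desert pairs, steady distal pairs near genes and steady promoter pairs. Desert and distal pairs peak at the centre, at about 1.02 and 0.83 sites per kb, and promoters stay near 0.3.

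Of the remaining motifs, AP-1 was in 21.5% of steady desert pairs (reversed 12.3%, all pairs 17.4%) and the TCF7L2 motif in 21.1% (reversed 19.0%, all pairs 17.5%). The CTCF letters AGGGGGC or AGGTGGC, which are part of the motif of the insulator protein, were in 7.52% against 3.18% reversed and 14.0% of all pairs. GATA letters AGATAAG were in 9.48% (7.36% reversed, 7.53% of all), and the HOXB13 letters CTCGTAAA or CCAATAAA in 6.36% (6.73% reversed, 4.77% of all). ETS letters were in 1.54% (4.87% reversed, 5.47% of all) and the SP motif GGGCGG, common in CpG islands, in 5.35% (6.25% reversed, 21.2% of all). The ETS letters and CTCGTAAA hold a CpG that is lost on reversal, and both forms of the CTCF letters gain one. The reversed shares of ETS, HOXB13 and CTCF are therefore not a like control. Every motif was read on both strands, and motifs may overlap one another.

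**Figure D4:**
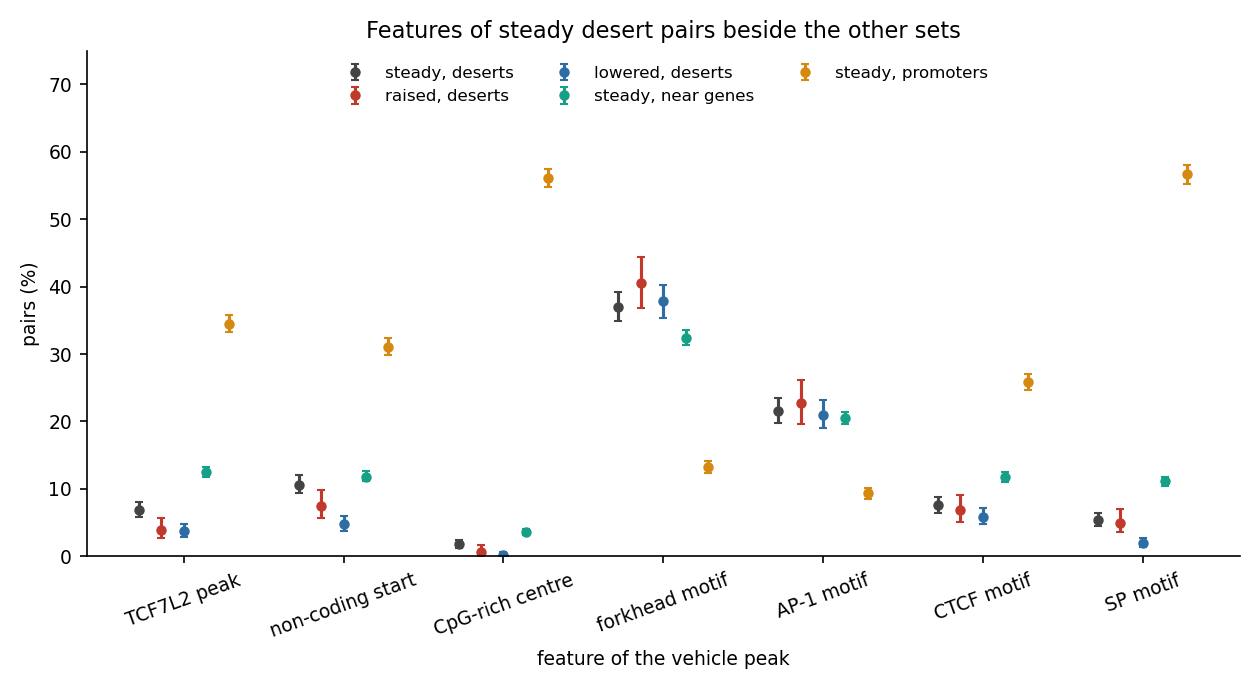
Percent of pairs (y axis, with 95% Wilson intervals) that overlapped a TCF7L2 peak, lay over a non-coding start, had a CpG-rich centre or held a motif in the central 500 bp, for steady, raised and lowered desert pairs and steady pairs near genes and at promoters. Steady desert pairs sit close to steady distal pairs near genes for the AP-1 motif (21.5% and 20.5%) and below them for TCF7L2 peaks (6.83% and 12.5%).

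Starts of non-coding genes lay under some of the regions. A start of a gene that is not protein-coding fell within 201 (10.6%, 9.33 to 12.1), counting 1000 bp upstream to 100 bp downstream of it, and 139 (7.36%) were at long non-coding RNA genes. The share over a start of any gene that is not protein-coding was 7.47% in raised and 4.71% in lowered desert pairs. It was 11.8% in steady distal pairs near genes and 15.3% in all pairs. The 201 had a median of 55 tags in both conditions. The tallest with a named long non-coding RNA were at DRAIC on chromosome 15, where one region had heights of 158 and 157 tags and another of 157 and 151. LINC03000, 1455 kb from MAT2B, had 148 and 119 tags, LINC01132 near IRF2BP2 had 141 and 132, and LINC01213 near TSC22D2 had 134 tags in both. At RNVU1-18, a variant of the U1 small nuclear RNA that takes part in splicing, heights were 145 and 153 tags.

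CpG-rich centres were rare. With at least 50% GC and an observed to expected CpG ratio of at least 0.6, there were 33 among the steady desert pairs (1.75%), 3 among the lowered ones (0.202%, 0.0687 to 0.592) and 4 among the raised ones (0.622%, 0.242 to 1.59), the last interval overlapping that of the steady pairs. They were 3.58% of steady distal pairs near genes and 56.1% of steady promoters. With ratios divided by the desert median the share among steady desert pairs was 1.01%. Of the 33, 23 were over a non-coding start. Their median heights were 60 and 65 tags, above the 46 of all steady desert pairs. Examples were a region near STARD13 with 90 and 93 tags and a CpG ratio of 0.984, and one near NTMT1, an N-terminal methyltransferase gene, with 75 tags in both conditions and a ratio of 0.977.

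Of the regions, 472 (25.0%) lay inside a protein-coding gene, at least 100 kb from its protein-coding transcript starts, and 77 regions touched an exon. Where the starts of every transcript of such genes were counted, 234 of 1585 regions (14.8%) were inside a gene. The 472 were spread over 291 genes. MAML3, a coactivator of Notch signalling, held 10 regions (vehicle heights 28 to 109 tags, DHT heights 30 to 95, medians 65.5 and 56.0). CDKAL1, a tRNA-modifying enzyme, held 8 (medians 38.5 and 34 tags). EPHA3, an ephrin receptor, held 6, of 49 to 100 and 46 to 108 tags, and WDR70 held 6 with medians of 76 tags in both. PRKCA, a protein kinase C gene, held 4, of which 3 overlapped TCF7L2, and their medians were 92.5 and 82.0 tags. These genes were picked out after their values were seen.

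The nearest protein-coding start was that of 977 genes, and 569 of them had a single region. Another 61 genes had at least 5 regions each and 439 together. TENM2, a teneurin of neuronal adhesion, had most with 18 of 29 desert pairs steady (vehicle heights 28 to 133 tags, DHT heights 28 to 151), 6 raised and 5 lowered. LRRC4C, a netrin-G ligand, had 15 steady of 29, with medians of 73 and 72 tags, and 10 lowered. EPHA3 and N6AMT1, a methyltransferase gene, had 14 each, and N6AMT1 had medians of 46.5 and 53.0 tags with 5 raised pairs and 2 lowered. TBL1XR1, a subunit of nuclear receptor corepressor complexes, had 12, PPIAL4G 12, and the adhesion genes CDH6, NCAM2 and PCDH7 had 11 each. GPC5, a cell surface glypican, was unlike these in having 11 raised pairs beside 10 steady ones. Of the 13 genes with at least 10 regions, 12 had none that overlapped a TCF7L2 peak, and TBL1XR1 had 1 among its 12 regions. That is a count of genes, unlike the share of 6.83% over all steady desert regions.

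Counted by gene list, 15 of 22 neuronal adhesion and synapse genes (68.2%) were the nearest start of a steady desert region, against 4.85% of all protein-coding genes, the list holding long genes known to border deserts. They had 45 regions among 140 desert pairs, so that 32.1% of their desert pairs were steady, where 47.0% of all desert pairs were. CDH18, a cadherin, was nearest to one of 150 and 129 tags, NRXN3, a presynaptic receptor, to one of 95 and 86, and LRP1B to one of 98 and 80. Developmental transcription factors were represented by 13 of 36 (36.1%), and that list too was made of genes often beside deserts. They had 29 regions among 70 desert pairs, so that 41.4% of their desert pairs were steady. TFAP2B, an AP-2 factor, had regions of 117 and 110, 102 and 100, and 102 and 110 tags 549 to 564 kb away, and SOX9 had one of 110 and 94 tags with a TCF7L2 peak of 49 tags.

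Genes of the androgen response were the nearest start of some regions, namely 15% of a list of androgen-induced and 25.0% of a list of androgen-repressed genes, beside 4.85% of all protein-coding genes. Every other list except housekeeping was above 4.85% too, from 14.3% for Wnt targets to 68.2% for neuronal genes. Desert pairs were steady in 5 of 7 for androgen-induced and 4 of 17 (23.5%) for androgen-repressed genes, beside 47.0% of all desert pairs. In a separate list of luminal and androgen lineage factors the share was 25.0%. Near GRHL2 of that list, a grainyhead factor of epithelial cells, 3 regions had 126 and 135, 115 and 115, and 93 and 83 tags. Of 20 androgen-induced genes ELL2, ZBTB10 and ABCC4 had regions, the tallest being that of the transporter ABCC4 with 92 and 106 tags, and ELL2, an elongation factor, having 36 and 37. BCHE and OPRK1 were 2 of 8 androgen-repressed genes, and BCHE, butyrylcholinesterase, was nearest to regions of 105 and 96, 95 and 91, and 31 and 25 tags. Wnt targets had 2 of 14, SOX4 with regions of 124 and 130, 78 and 77, and 56 and 57 tags and LEF1 with 77 and 64. Risk-locus genes of the study had 8 of 45, with a region 177 kb from TET2 at 97 and 80 tags, and the 10 housekeeping genes had none.

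Counting peaks of every kind, 995 of the 1888 regions (52.7%) had another vehicle peak within 10 kb, beside 60.5% of all pairs. Most had no other steady desert region within 50 kb. Of the 1888, 720 (38.1%, 36.0 to 40.3) had such a neighbour and 1168 had none. The share with another of their own set that close was 19.4% for raised and 42.1% for lowered desert pairs, 51.9% for steady distal pairs near genes and 76.0% for all pairs, sets of unequal size. They formed 292 runs of at least 2, and 34 runs of at least 4 that held 151 regions. Where a steady pair had another desert pair within 50 kb, the nearest one was steady in 56.2% of 1090, lowered in 28.2% and raised in 15.6%. For lowered pairs the nearest was lowered in 58.5% (55.2 to 61.6) and steady in 35.7%, and for raised pairs it was raised in 32.4% and steady in 50.8%. Neighbours thus had the same label more often than the shares of all desert pairs (47.0%, 37% and 16%), though peaks of 1 stretch share library, copy number and base composition.

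The 2 longest runs held 6 regions. On chromosome 9, between IER5L and NTMT1 (chr9:132081810-132242849), the vehicle heights were 87, 32, 109, 75, 42 and 50 tags and the DHT heights 79, 29, 114, 75, 48 and 43. The vehicle heights ranged from 32 to 109 tags, and 2 of the 6 overlapped TCF7L2. On chromosome 21, 546 to 653 kb from N6AMT1, they were 38, 47, 36, 50, 102 and 35 tags in the vehicle list and 47, 54, 39, 52, 109 and 43 in the DHT list. All 6 were higher with DHT, and 1 raised desert pair lay between them. None of the 6 overlapped TCF7L2, where 6.83% of all steady desert regions did, too few regions to tell apart. A run of 5 within TANC1 read 106, 55, 28, 60 and 123 tags in the vehicle list. In the DHT list it read 129, 53, 28, 56 and 117, and 1 lowered desert pair lay between its regions. The 5 within EPHA3 had vehicle heights of 88, 92, 87, 100 and 49 tags and DHT heights of 90, 86, 83, 108 and 46. The run of 5 near PPIAL4B (28 to 137 tags) held 3 regions that could be placed once in the genome.

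**Figure D5:**
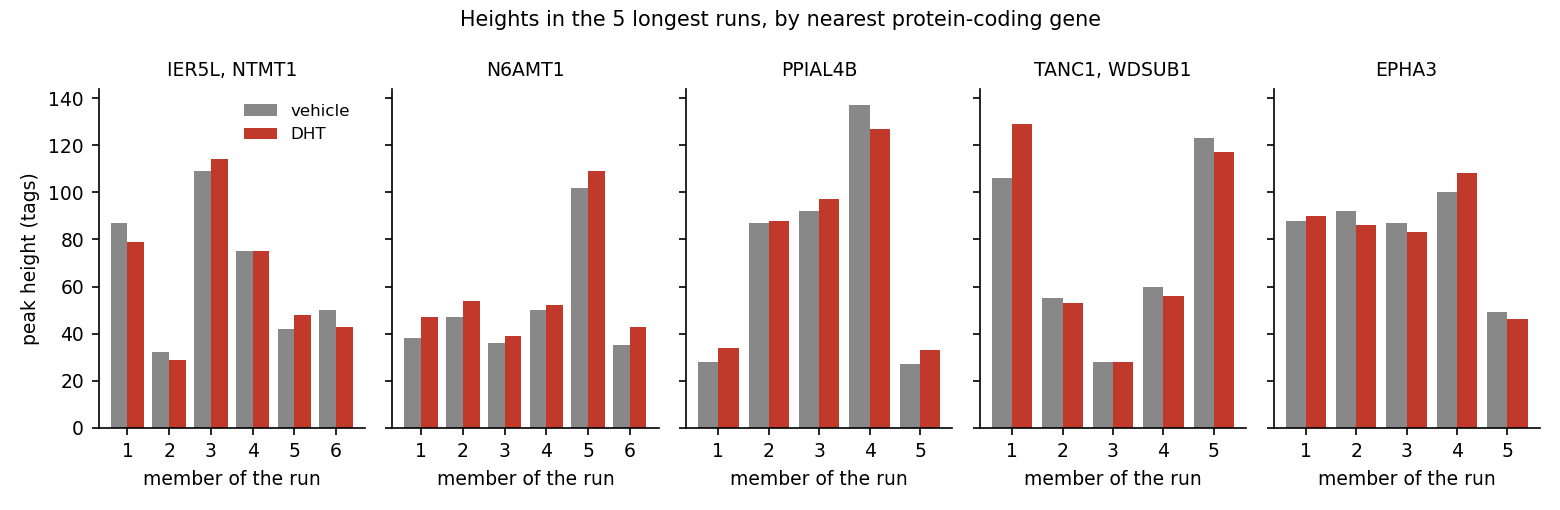
Peak height (y axis, tags) with vehicle (grey) and DHT (red) for each region of the 5 longest runs, in genome order and titled by the nearest protein-coding genes. Heights within a run range widely, for example from 32 to 109 tags with vehicle near IER5L and NTMT1, while both conditions are close in each region because the regions were selected for that.

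Several of the tallest regions had near-identical copies elsewhere. The tallest of all was at chr11:42066240-42073019, 585 kb from LRRC4C, of 184 tags in the vehicle list (exact Poisson interval 158 to 213) and 163 in the DHT list (139 to 190). Others were inside EMCN on chromosome 4, an endothelial sialomucin gene (171 and 161 tags), 127 kb from BCAS1 on chromosome 20 (167 and 165) and 292 kb from METTL4 on chromosome 18 (165 and 148). One 276 kb from ST3GAL1 had 178 and 163 tags. The remaining 5 of the 10 tallest lay on chromosome 5 near SMN2, SERF1A, SERF1B and GTF2H2, the duplicated block that holds the survival of motor neuron genes, at 166 to 171 tags in the vehicle list and 162 to 168 in the DHT list. Each of these 5 had a second copy over at least 90% of its central 1000 bp, with a median identity of 99.9%.

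In all, the central 1000 bp of 39 of the 1888 regions (2.07%) could not be placed at 1 site, 12 of them on chromosome Y, and 5 of the 27 regions with at least 150 tags (18.5%). A further 81 regions were placed once but had a second copy, with a median identity of 98.9%. Heights at such copies depend on how reads that match several places were assigned, which is not given in the sources used here. Without the 39 the share with TCF7L2 was 6.98% and that with a forkhead motif 37.2%.

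The farthest regions lay megabases from any protein-coding start. On chromosome 21, between NCAM2 and MRPL39, 2 regions 2125 kb from those starts had 39 and 38 tags, and 84 and 71 tags, and one 1989 kb from NCAM2 had 54 and 67. A region 1947 kb from CTNNA2, an alpha-catenin gene, had 36 and 33 tags, and one 1936 kb from PIK3C3, a lipid kinase gene, had 29 and 33. None of the 5 overlapped TCF7L2, a count near the share of 4.90% found at 200 kb or more from a start. Per megabase, chromosome 5 held most steady desert regions (0.995) and chromosome 19, which is dense in genes, fewest (0.0507, 3 regions).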

How the data were processed

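LNCaP H3K27Ac (vehicle, DHT) and TCF7L2 ChIP-seq were analysed from 3 peak lists. An input library was not analysed here. Per the methods, H3K27Ac reads were aligned to hg19 with Bowtie 2 and TCF7L2 reads with ELAND, where the submitters' notes name Bowtie2, BWA and CASAVA 1.8.2, and peaks were called library by library with Sole-search. The deposited values are a signal: each peak's greatest pileup of tags, a whole number as the authors' caller wrote it, with no scaling stated and the depth unknown. Peak edges fell on 30 bp steps.

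Peaks were paired by an overlap of at least 1 bp and widths are ends minus starts. Starts, genes and exons came from GENCODE release 44 mapped to GRCh37, and bases from GRCh37, whose chromosome lengths held every peak. A promoter was 1000 bp upstream to 100 bp downstream of a protein-coding transcript start. No sequence of chromosome 8 is shown. Raised and lowered pairs lay above and below the band of ratios. Central 1000 bp were aligned back with minimap2 2.31 (mapping quality of at least 30 counted as 1 place). Shares have 95% Wilson intervals for counting error only, since 1 library per condition allowed no test. Scripts (Python 3.11.15, scipy 1.17.1) were tested on simulated peaks. Regions, sets, motifs and gene lists were chosen with earlier results of these data known. Text names the tallest and farthest regions, those at the bounds, with the tallest TCF7L2 peaks, over non-coding starts, in the longest runs nearest to listed genes, and the genes nearest to most regions. CpG-rich examples and genes that hold regions were named after their values were seen. One motif and the regions nearest to 1 gene are not reported here.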

Additional observations from a re-analysis of the deposited data

How the results depend on the processing

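Settings were changed one at a time, and 55 of 78 values stayed within the interval of the main value or, for the number of regions, within 1.5 times of 1888. The rest follow. The number of steady desert pairs was 3115 at 50 kb or more from a start, 1061 at 200 kb, 988 for ratios of 0.9 to its inverse and 1137 at 40 tags or more. TCF7L2 overlap was 8.70% at 50 kb, 4.90% at 200 kb, 5.61% with the 15000 tallest TCF7L2 peaks and 5.03% over the central 500 bp. Non-coding starts were under 9.14% at 200 kb and 14.5% within 2000 bp. Regions inside genes were 37.6% at 50 kb, 13.6% at 200 kb and 14.8% when starts of every transcript of protein-coding genes were used. The forkhead motif was in 34.4% at 40 tags or more, 52.9% in the central 1000 bp and 20.9% as TGTTTAC alone. CpG-rich centres were 0.943% at 200 kb. Another region within 50 kb was found for 23.4% with the narrower ratio, 29.8% at 40 tags or more and, within 20 kb, 24.2%. After division by the desert median ratio, an alternative chosen after seeing the data like those without chromosome Y and without regions of several places, non-coding starts were 9.09%, CpG-rich centres 1.01% and neighbours 41.4%. Apart from settings that select fewer or other regions or letters by construction, the cause was not tested. No paired analysis was possible because each condition had 1 library. Depth is unknown, and at these heights nearly every ratio is fixed only loosely.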
